A study of Rattus norvegicus with 6 samples.

Results

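The genes described here make, lengthen and desaturate fatty acids, or set the supply of malonyl-CoA for that work. Their 10 members were chosen by symbol from the gene table of the study: Acly, Acaca, Acacb, Mlycd, Fasn, Scd, Fads1, Fads2, Elovl5 and Elovl6. Each matched 1 of 21648 genes in the table, and 9 of the 10 had enough counts to be tested, as did 14253 genes in all. The sequenced RNA came from neonatal rat ventricular myocytes, wild-type heart muscle cells dissociated from pups 3 days after birth and cultured, with attached fibroblasts removed before plating and bromodeoxyuridine present at plating. The medium was later changed to one with insulin, transferrin and selenium. Cultures of both groups stayed 72 h with DMSO, the solvent, or with 10 µM of compound 915 in the same volume of solvent, with 3 libraries in each group. According to the design text, 915 activates ERRs, the orphan nuclear receptors related to the estrogen receptor, which are known to drive genes of energy metabolism. Replicates are labelled biological, but separate isolations are not stated, and p-values therefore reflect only the variation among these 6 libraries, part of which may be technical.

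Fatty acid synthesis starts in the cytosol, where ATP citrate lyase (Acly) splits exported citrate into acetyl-CoA. Acetyl-CoA carboxylases turn acetyl-CoA into malonyl-CoA, the carbon donor that fatty acid synthase (Fasn) and the elongases (Elovl5, Elovl6) add to a growing chain, and desaturases (Scd, Fads1, Fads2) then place the cis bonds. In heart, which burns far more fat than it makes, malonyl-CoA is best known as an inhibitor of carnitine palmitoyltransferase 1, the gate for long-chain fatty acids into mitochondria. Acacb encodes the carboxylase anchored at the mitochondrial outer membrane, Acaca the cytosolic form, and Mlycd the decarboxylase that removes malonyl-CoA.

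With 915 the members moved in both directions. Acacb and Mlycd, which make and remove malonyl-CoA, were higher by 1.69-fold and 1.42-fold. Acly, Fasn, the 3 desaturase genes and Elovl5 were lower, from 1.23-fold for Elovl5 to 2.98-fold for Scd. Acaca did not pass the test. Of the 9 tested members 2 were thus called higher and 6 lower at an adjusted p under 0.05 in edgeR's quasi-likelihood test, in a transcriptome where 49.8% of all tested genes were called, 24.3% higher and 25.5% lower. The share called in either direction was therefore high for any list, and the members' count has to be read against it. The median log2 fold change of the 9 was -0.42, against -0.01 for all tested genes.

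The promoters of members that moved in opposite directions are shown first, because an ERR agonist and the sterol-regulated factors of lipid synthesis act through short DNA elements. The 250 bases before the start site were taken from the RefSeq promoter table of the rat assembly GRCr8, which lists 1 start per gene and had entries for 7 of the 10 members. Acaca, Fasn and Elovl6 had none. The letters searched, on both strands, were AAGGTCA (the core that ERRs bind), CCAAT (the box bound by NF-Y), CACGTG (the E-box bound by USF and ChREBP-type factors) and the classical sterol element. Matches are in capitals, on either strand, and no 2 of them overlapped. The sequences run 5′ to 3′ on the strand of the gene for Acacb (chr12:48138215-48138464, minus strand) and Mlycd (chr19:64356332-64356581, plus strand), which were higher, and for Acly (chr10:85963632-85963881, minus strand) and Fads1 (chr1:216252442-216252691, plus strand), which were lower.
Acacb: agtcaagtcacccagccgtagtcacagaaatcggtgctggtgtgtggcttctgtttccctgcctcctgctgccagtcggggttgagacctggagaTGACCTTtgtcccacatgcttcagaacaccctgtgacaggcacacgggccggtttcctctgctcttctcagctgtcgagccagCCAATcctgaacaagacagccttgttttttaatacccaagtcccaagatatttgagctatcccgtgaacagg
Mlycd: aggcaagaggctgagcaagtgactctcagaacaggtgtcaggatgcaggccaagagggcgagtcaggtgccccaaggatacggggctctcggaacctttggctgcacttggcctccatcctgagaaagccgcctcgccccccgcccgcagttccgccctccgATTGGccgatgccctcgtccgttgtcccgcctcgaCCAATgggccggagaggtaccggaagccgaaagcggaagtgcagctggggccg
Acly: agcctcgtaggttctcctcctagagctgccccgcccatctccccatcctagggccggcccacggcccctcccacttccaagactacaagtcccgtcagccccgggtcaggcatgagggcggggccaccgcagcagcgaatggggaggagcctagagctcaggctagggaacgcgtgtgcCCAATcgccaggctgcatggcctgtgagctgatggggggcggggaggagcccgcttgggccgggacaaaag
Fads1: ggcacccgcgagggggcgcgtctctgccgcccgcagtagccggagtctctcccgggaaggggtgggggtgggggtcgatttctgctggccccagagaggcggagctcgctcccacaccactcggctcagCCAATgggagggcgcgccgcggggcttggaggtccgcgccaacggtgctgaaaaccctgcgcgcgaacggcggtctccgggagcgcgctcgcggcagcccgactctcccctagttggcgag

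AAGGTCA occurred in 1 of the 7 promoters, that of Acacb, on the reverse strand with its first base at -155, and in 3.99% of 33469 rat promoters of the same length. CCAAT occurred in 5 of the 7, both in members that were higher (Acacb, Mlycd) and in members that were lower (Acly, Fads1, Elovl5), and in 34.0% of all promoters. CACGTG was found in Elovl5 alone among the 7 and in 5.59% of all promoters. The sterol element was found in 0 of the 7 and in 0.105% of all promoters. This exact spelling is so rare that its absence from 7 promoters carries no information on sterol-regulated factors. The windows of Scd and Fads2 held none of the 4 motifs. These matches describe letters and not binding, and other start sites of these genes were not examined.

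Levels are given as the deposited CPM (counts scaled by the total of each library), for libraries 1, 2 and 3 of a group in that order. CPM is not scaled to gene length, so levels are compared between groups for 1 gene and not between genes. Counts in the table summed to between 36799845 and 40010826 for the DMSO libraries and to between 30639244 and 38078137 for those given 915. Fold changes are relative to library totals scaled by TMM, and an error after a log2 fold change is its standard error.

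**Figure D1:**
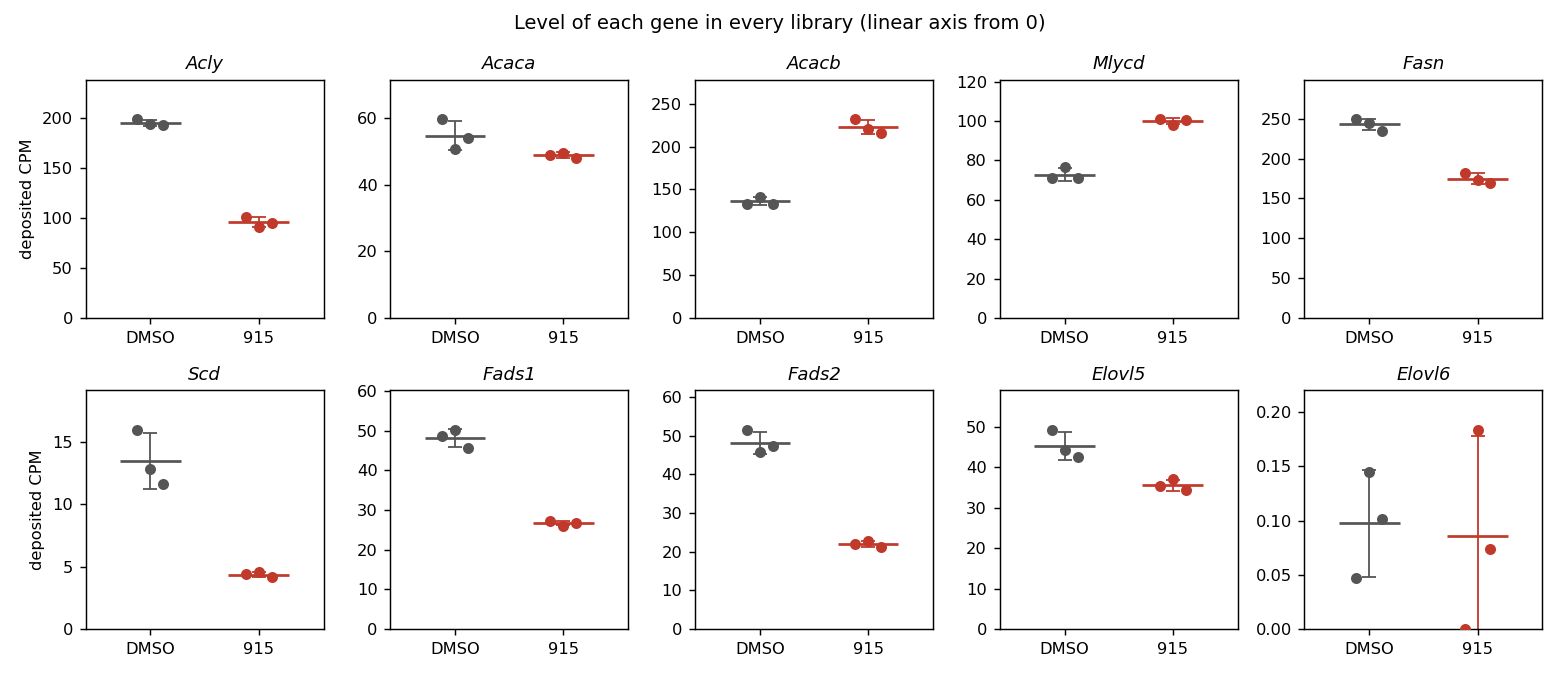
Deposited CPM of the 10 genes in each of the 6 libraries (points), with the mean (line) and SD (bars) of each group of 3, on a linear axis from 0 that differs between panels. The 915 libraries lie wholly above the DMSO libraries for Acacb and Mlycd, wholly below them for Acly, Acaca, Fasn, Scd, Fads1, Fads2 and Elovl5, and overlap with them for Elovl6, which is near 0 in both groups.

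The gene for cytosolic acetyl-CoA supply fell. Acly (ENSRNOG00000016924) was at 199, 194 and 193 CPM with DMSO and at 101, 91.7 and 95.7 CPM with 915. All 915 libraries were far below all DMSO libraries, and the spread within either group was small, at 195 ± 3.12 and 96.2 ± 4.83 CPM (mean ± SD, n = 3 each). The log2 fold change was -0.97 ± 0.0499 (edgeR adjusted p = 1.63e-09). Of all tested genes, 7.65% had a lower log2 fold change.

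The carboxylase genes went apart. Acacb (ENSRNOG00000000658), whose product makes malonyl-CoA next to carnitine palmitoyltransferase 1, was at 133, 142 and 134 CPM with DMSO and at 232, 221 and 216 CPM with 915. The groups did not overlap, with means of 136 ± 4.77 and 223 ± 7.80 CPM (SD, n = 3 each). Its log2 fold change, 0.76 ± 0.0496 (edgeR adjusted p = 1.79e-08), was exceeded by 3.66% of tested genes. Acaca (ENSRNOG00000034013), whose product makes malonyl-CoA for cytosolic synthesis, was at 59.5, 50.6 and 54.0 CPM with DMSO and at 48.9, 49.5 and 47.8 CPM with 915. Every 915 library was below every DMSO library here too, but DMSO library 2 was close to 915 library 2, and DMSO libraries were spread over a wider range than 915 libraries. The log2 fold change of Acaca was -0.12 ± 0.0620 (95% interval -0.25 to 0.02, edgeR adjusted p = 0.135). The call of Acaca depended on DMSO library 2 and on scaling. Its log2 fold change was -0.16 without that library (edgeR adjusted p = 0.0435) and -0.17 with library totals alone in place of TMM (edgeR adjusted p = 0.0364), and the adjusted p ranged from 0.0364 to 0.505 over 14 alternatives. A lack of overlap is common in these data: it held for all 9 tested members and for 56.7% of tested genes (23.9% with 915 above and 32.8% with 915 below).

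The gene that removes malonyl-CoA rose with the mitochondrial carboxylase gene. Mlycd (ENSRNOG00000014522) was at 70.9, 76.6 and 70.9 CPM with DMSO and at 101, 98.0 and 101 CPM with 915. The 915 libraries agreed closely and all exceeded the DMSO libraries, with means of 72.8 ± 3.31 and 99.8 ± 1.52 CPM (SD, n = 3 each). The log2 fold change was 0.50 ± 0.0532 (edgeR adjusted p = 2.53e-06), and 8.71% of tested genes had a higher one.

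**Figure D2:**
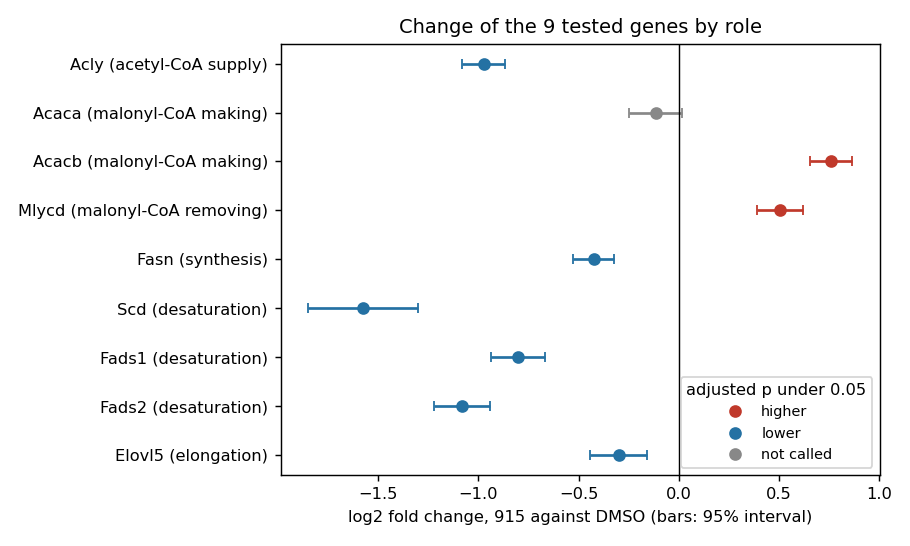
Log2 fold change of the 9 tested genes, 915 against DMSO, as fitted by edgeR from 3 libraries a group, in the order of the pathway with the 95% interval as bars. Acacb (0.76) and Mlycd (0.50) lie to the right of 0, the interval of Acaca spans 0, and the other 6 genes lie to the left, down to -1.58 for Scd.

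The transcript of fatty acid synthase was lower by a smaller margin. Fasn (ENSRNOG00000045636), the enzyme that builds palmitate, was at 249, 245 and 235 CPM with DMSO and at 182, 173 and 169.8 CPM with 915. The groups were well apart, at 243 ± 7.18 and 175 ± 6.41 CPM (SD, n = 3 each). Its log2 fold change was -0.42 ± 0.0472 (edgeR adjusted p = 4.24e-06), and 20.2% of tested genes were lower still.

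Transcripts of all 3 desaturase members were lower, those of Scd and Fads2 by more than those of Acly and those of Fads1 by less. Scd (ENSRNOG00000013552), a stearoyl-CoA desaturase that makes monounsaturated fatty acids, was at 15.9, 12.8 and 11.6 CPM with DMSO and at 4.37, 4.59 and 4.13 CPM with 915. DMSO libraries varied more for Scd than for any other tested member, with a coefficient of variation of 16.7%, and even the lowest was above all 915 libraries. Its log2 fold change was -1.58 ± 0.128 (edgeR adjusted p = 1.77e-07), and 2.62% of tested genes had a lower value. Scd lies among close copies in the RefSeq gene table of GRCr8, and how reads matching several copies were treated is not given in the sources used here. The split of reads between Scd and its copy Scd2 is uncertain. Scd2 (ENSRNOG00000046005) was at 645, 529.9 and 596 CPM with DMSO and at 345, 343 and 322 CPM with 915, and fell in the same direction (log2 fold change -0.76 ± 0.0605, edgeR adjusted p = 1.48e-07).

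Both front-end desaturase genes, whose products act in turn on polyunsaturated fatty acids, fell. Fads1 (ENSRNOG00000020480), the delta-5 enzyme, was at 48.8, 50.2 and 45.6 CPM with DMSO and at 27.2, 26.1 and 26.8 CPM with 915. Fads2 (ENSRNOG00000020440), the delta-6 enzyme, was at 51.5, 45.9 and 47.3 CPM with DMSO and at 22.0, 22.7 and 21.3 CPM with 915. In both genes the 915 libraries lay in a narrow band well below the DMSO libraries. The log2 fold changes were -0.80 ± 0.0622 for Fads1 and -1.08 ± 0.0643 for Fads2 (edgeR adjusted p = 1.11e-07 and 6.79e-09). Fads1, Fads2 and Fads3 are neighbours in the RefSeq gene table of GRCr8, and Fads3 (ENSRNOG00000020385) was also lower, at 126 ± 7.15 and 82.4 ± 1.93 CPM (SD, n = 3 each, log2 fold change -0.56 ± 0.0529, edgeR adjusted p = 8.07e-07). The same table places a long non-coding gene within the span of Fads2, another within that of Acacb, and a coding, a non-coding and a pseudogene within that of Acaca. Whether counting used strand is not given in the sources used here. Reads of overlapping genes can therefore be among those of these members.

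Of the members that passed the test, the elongase gene changed least. Elovl5 (ENSRNOG00000006331), which lengthens polyunsaturated fatty acids, was at 49.2, 44.4 and 42.5 CPM with DMSO and at 35.3, 37.1 and 34.4 CPM with 915. The groups were separate but closer than for the desaturases (-0.30 ± 0.0654 on the log2 scale, edgeR adjusted p = 1.56e-03), and 26.3% of tested genes were lower. Elovl6 (ENSRNOG00000010468), which lengthens palmitate, had 2, 6 and 4 counts in the DMSO libraries and 0, 6 and 3 counts in the 915 libraries. These numbers lie around 3 counts, the limit that an observed 0 sets by counting error alone, or 0.0698 to 0.0917 CPM by library. A difference in Elovl6 was not detectable at this depth, and the gene was not tested.

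Within the groups, DMSO library 1 held the highest of the 3 DMSO values in 6 of the 9 tested members (Acly, Acaca, Fasn, Scd, Fads2 and Elovl5), and DMSO library 2 in the other 3 (Acacb, Mlycd and Fads1). With 915 the highest value was in library 1 for 5 members and in library 2 for 4.

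Members were set against each other by the log2 ratio of 2 genes within each library, from CPM with 0.5 added. Among the ratios computed, only that of Acacb to Fasn set a malonyl-CoA gene against fatty acid synthase. A change of such a ratio needs no gene length. The ratio of Acacb to Acaca was 1.16, 1.48 and 1.30 with DMSO and 2.23, 2.15 and 2.17 with 915, a rise of 0.87. The ratio of Acacb to Fasn was -0.90, -0.79 and -0.81 with DMSO and 0.35, 0.35 and 0.35 with 915, a rise of 1.18. In both ratios the groups were far apart, and the 915 libraries lay closer together than the DMSO libraries. The ratio of Mlycd to Acaca rose by 0.61, from 0.41 ± 0.172 to 1.03 ± 0.0437 (SD, n = 3 each). The ratio of Mlycd to Acacb moved the other way, from -0.90 ± 0.0145 to -1.16 ± 0.0484, a difference of -0.26, so that the decarboxylase gene gained less than the mitochondrial carboxylase gene in these libraries. Fads2 lost ground to Fads1 by a similar -0.27, from 0.00051 ± 0.112 to -0.27 ± 0.0711. Groups did not overlap in any of these 5 ratios. The exact permutation test, two-sided, gave p = 0.1 for each, which is the lowest value possible with 3 libraries a side, and p = 0.12 after adjustment over the 6 ratios computed. For Acacb to Acaca, Mlycd to Acaca and Acacb to Fasn, the separation and the p of 0.1 restate the single genes. In these ratios 1 gene lay wholly above DMSO and the other wholly below it with 915, so the groups could not overlap. The remaining ratio, of Elovl6 to Elovl5, rests on the few Elovl6 counts and its groups overlapped (exact permutation p = 0.3).

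**Figure D3:**
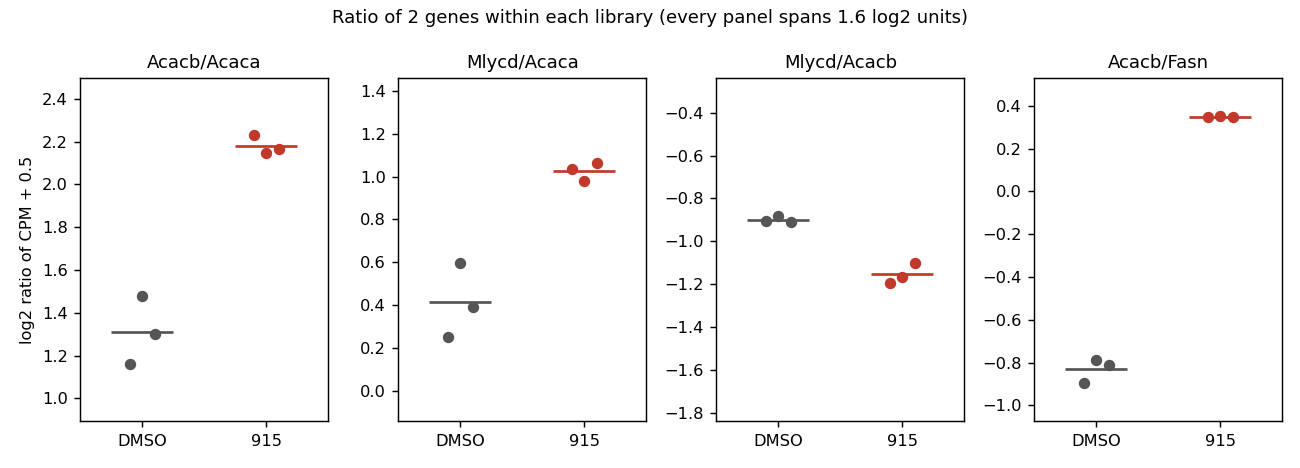
Log2 ratio of 2 genes within each of the 6 libraries (points, CPM with 0.5 added), with group means as lines, over 1.6 log2 units in each panel. Acacb gained on Acaca (by 0.87) and on Fasn (by 1.18), Mlycd gained on Acaca (by 0.61) and lost to Acacb (by 0.26), with no overlap between groups.

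Genes around the pathway were read from 7 lists with 64 genes, of which 60 were in the table and 56 were tested. Of these 22 were called higher and 15 lower, and their median change was 0.05 on the log2 scale. Among all tested genes 24.3% were called higher and 25.5% lower. The counts of each list below rest on few genes and have to be read against these shares. Some lists had a positive median change and others a negative one.

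In acetyl-CoA supply, 2 of 3 tested genes were lower and 0 higher. Slc25a1, the carrier that exports citrate from mitochondria, went from 60.8 ± 3.68 to 38.4 ± 0.295 CPM (SD, n = 3 each, log2 fold change -0.62 ± 0.0601, edgeR adjusted p = 1.15e-06). Aacs, which activates acetoacetate for lipid synthesis in the cytosol, had -0.79 on the log2 scale (edgeR adjusted p = 3.77e-07). Acss2, which makes acetyl-CoA from acetate and was named after its values were seen, did not pass, at 51.2 ± 1.79 and 52.9 ± 1.27 CPM (SD, n = 3 each). Among 3 tested genes of NADPH supply, the reducing power for synthesis, 1 was higher and 0 lower. That gene was Me1, malic enzyme, at 131 ± 3.57 and 149 ± 2.69 CPM (SD, n = 3 each, log2 fold change 0.23, edgeR adjusted p = 7.76e-04).

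Among carboxylase partners and the targets of malonyl-CoA, of 8 tested genes 5 rose and 1 fell, the median being 0.22 (2 lower without 915 library 1 or with library totals alone). Cpt1b, the muscle form of the transferase that malonyl-CoA inhibits, was at 147, 176 and 165 CPM with DMSO and at 385, 380.1 and 369 CPM with 915 (1.26 ± 0.0627 on the log2 scale, edgeR adjusted p = 1.14e-09). Cpt1a, the liver form, had 0.21 (edgeR adjusted p = 1.68e-03). Hlcs, which attaches biotin to carboxylases, had 0.34 (edgeR adjusted p = 9.67e-03), and Acsf3, which makes malonyl-CoA inside mitochondria, 0.46 (edgeR adjusted p = 4.96e-05). The kinase AMPK inactivates both carboxylases by phosphorylation, and its catalytic subunit gene Prkaa1 was lower (-0.31, edgeR adjusted p = 5.01e-03). The other catalytic subunit gene, Prkaa2, was the fifth higher gene and was named after its values were seen. Its log2 fold change was 0.24 (edgeR adjusted p = 0.0295), and its call was lost without DMSO library 1 (edgeR adjusted p = 0.0805), DMSO library 2 (0.0615) or 915 library 2 (0.165), the last with a log2 fold change of 0.12. Over the 14 alternatives, which also ended the call with library totals alone and with a replicate block, the adjusted p ranged from 0.00698 to 0.165. Mid1ip1, which promotes assembly of the carboxylases into filaments, did not pass, at 68.9 ± 2.43 and 63.4 ± 3.43 CPM (SD, n = 3 each, edgeR adjusted p = 0.335).

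Regulators of lipid synthesis were mixed, with 6 of 18 tested genes higher and 4 lower (median 0.12). Srebf1, the sterol-regulated factor known for fatty acid genes, was at 99.4, 93.3 and 87.8 CPM with DMSO and at 105, 95.4 and 95.2 CPM with 915. Its groups overlapped and it did not pass (log2 fold change 0.13 ± 0.0584, edgeR adjusted p = 0.0895). Srebf2, its relative known for cholesterol genes, was at 169, 165 and 160.0 CPM with DMSO and at 85.7, 89.1 and 85.3 CPM with 915 (-0.88 ± 0.0474 on the log2 scale, edgeR adjusted p = 2.71e-09). Insig1, which holds these factors back in the endoplasmic reticulum and is itself a target of theirs, was lower (-0.60 on the log2 scale, edgeR adjusted p = 1.60e-06). Insig2 and Scap of the same list, named after their values were seen, were higher (0.32 and 0.33, edgeR adjusted p = 2.91e-03 and 2.64e-04). Ppara, the fatty acid-activated receptor of oxidation genes, and Mlx, the partner of the glucose-responsive factors, were higher (0.93 and 0.67, edgeR adjusted p = 7.78e-07 and 8.92e-07). Without 915 library 1 the lower genes of this list numbered 2.

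The other genes of the elongation cycle had 4 of 9 tested genes lower and 2 higher (median -0.18). Hacd4, a dehydratase of very long chains, had a log2 fold change of -0.99, the reductase Tecr -0.29 and the ketoreductase Hsd17b12 -0.22 (edgeR adjusted p = 5.94e-05, 4.30e-04 and 4.34e-03). The higher genes, named after their values were seen, were the elongase Elovl4 and the muscle dehydratase Hacd1, at 0.38 and 0.18 (edgeR adjusted p = 0.0479 and 0.0332). Elovl4 lost its call in 9 of 14 alternatives, among them the replicate block (edgeR adjusted p = 0.0783) and DESeq2 (adjusted p = 0.0576), with a range of 0.0347 to 0.147. Hacd1 lost its call in 7 of 14, with a range of 0.00212 to 0.161. With any 1 library left out, at most 1 gene of this list was called higher, and 0 with upper-quartile scaling or with library totals alone. Of 7 tested further desaturases and their electron donors 4 were lower and 1 higher (median -0.32). Beside Scd2 and Fads3, named above, the higher gene was Fads6, a desaturase-like gene, from 8.22 ± 0.616 to 14.8 ± 0.402 CPM (SD, n = 3 each, log2 fold change 0.90 ± 0.0913, edgeR adjusted p = 1.72e-06).

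Mitochondria hold a separate fatty acid synthesis, which builds the octanoyl chain that becomes lipoic acid. Here the direction was opposite to that of Fasn: of 8 tested genes 7 rose and 0 fell, and the median was 0.46 on the log2 scale. Of the 7, Cbr4 and Lipt2 were named after their values were seen. Cbr4 lost its call in 6 of 14 alternatives (edgeR adjusted p up to 0.1215) and Lipt2 in 3 of 14 (up to 0.0590). Without DMSO library 2 the higher genes of this list numbered 5. Mcat, which loads malonate onto the mitochondrial carrier protein, went from 11.8 ± 0.657 to 20.8 ± 0.798 CPM (SD, n = 3 each, log2 fold change 0.87 ± 0.0807, edgeR adjusted p = 7.40e-07). The reductase subunit gene Hsd17b8 and the carrier protein gene Ndufab1, which is also a complex I subunit, had 0.63 and 0.54 (edgeR adjusted p = 8.98e-07 and 1.58e-05).

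**Figure D4:**
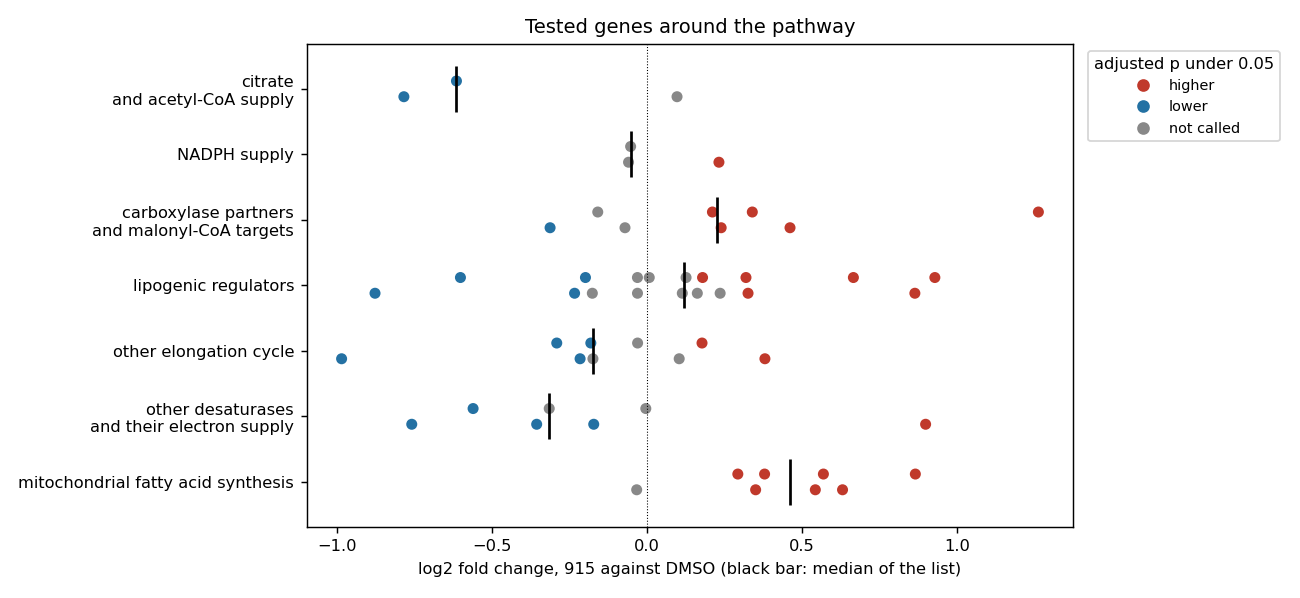
Log2 fold change, 915 against DMSO, of the 56 tested genes in 7 lists around the pathway, 1 point a gene, coloured by call, with the median of each list as a black bar. Mitochondrial fatty acid synthesis lies to the right (median 0.46, 7 of 8 higher), and acetyl-CoA supply and further desaturases lie mostly to the left (medians -0.62 and -0.32).

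The profiles most like that of Acacb and of Fads2 were sought among 9704 tested genes with a mean of at least 5 CPM and an established symbol, by Euclidean distance of log2(CPM + 0.5) from the DMSO mean over the 6 libraries. For Acacb the nearest were the mitochondrial S-adenosylmethionine carrier gene Slc25a26 (distance 0.0396), the metal transporter gene Slc11a2 (0.0664) and Ctla2a (0.0730). For Fads2 they were Sncaip (0.0825), the metalloproteinase gene Adamts15 (0.0972) and the cytochrome P450 gene Cyp1a1 (0.101). Their log2 fold changes, in the same order, were 0.78, 0.76 and 0.77 for Acacb and -1.14, -1.09 and -1.11 for Fads2. With 2 groups of close libraries the distance mainly reflects the size of the change, and shared regulation was not tested.

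Markers of other cell types moved in the same libraries, and in bulk RNA fewer cells of a type and less RNA per cell cannot be told apart. All 10 cardiomyocyte markers were present and higher with 915, their summed level being 21827 to 23026 CPM with DMSO and 30796 to 31630 with 915. Of 9 tested fibroblast markers 6 were lower and 2 higher (21211 to 22091 and 11228 to 11874 CPM). Most of this sum came from the collagen genes Col1a1 (means of 11988 and 6289 CPM) and Col3a1 (7067 and 2826 CPM). The higher markers were Dcn and Pdgfra (log2 fold change 0.48 and 0.28), and Postn did not pass, at 1606 and 1597 CPM. Of 5 tested markers of smooth muscle or pericytes 4 fell and 0 rose (1629.9 to 1773 and 687 to 734 CPM). Among macrophage markers 4 of 9 tested fell and 0 rose (214 to 231 and 109 to 132 CPM), among endothelial markers 4 of 8 fell and 1 rose (70.9 to 73.9 and 57.3 to 60.04 CPM), and among Schwann cell markers 3 of 4 fell and 0 rose (29.8 to 31.7 and 19.6 to 21.4 CPM). The median log2 fold change of the cardiomyocyte markers was 0.47. The part of cell composition in the decreases and in the increases, of members and of pathway genes, was not tested. Of 6 markers of adipocytes, the cells best known for storing fat, 4 were tested, 2 of them higher and 1 lower, and their summed level was 10.9 to 14.8 CPM with DMSO and 11.0 to 13.2 CPM with 915. Among them Adipoq, Cidec, Lep and Retn were under 1 CPM in every library, Plin1 was at 2.79 ± 0.237 CPM with DMSO and 0.874 ± 0.213 with 915, and Cfd at 9.03 ± 1.97 and 10.5 ± 0.827 (SD, n = 3 each).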

How the data were processed

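RNA counts of 6 libraries, 3 given DMSO and 3 given 915, were analysed. The submitters' processing notes name the build Rnor_6.0, featureCounts 1.4.6-p5 of Subread and STAR 2.5.1a, with nothing on strand or multi-mapping. The deposited counts filled 22641 rows, of which 993 repeated an Ensembl identifier with the same counts and were dropped. The deposited CPM values equal these counts divided by 1 total per library (32709227 to 42975767), of which the table holds 93.1% to 93.7%. No library was a copy of another in its group (chi-square of 5.27 to 11.0 per degree of freedom).

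All genes kept by filterByExpr (14253) were scaled by TMM and fitted with edgeR 4.0.16 (R 4.3.3) on group alone by the two-sided quasi-likelihood test, with Benjamini-Hochberg adjustment over all of them and a threshold of 0.05. At an unadjusted p under 0.05, 7943 genes passed. A standard error is the log2 fold change divided by the square root of F, and a 95% interval uses the fit's degrees of freedom. Alternatives used DESeq2 1.42.0, limma 3.58.1, other scalings and filters, a replicate block, and each library left out. On simulated counts for this comparison, over 14124 genes, 41 of 50 genes changed 1.5-fold and 44 of 50 changed 2-fold were called. Almost all genes there were unchanged (13925), and 13 of these were called. In the deposited counts 49.8% of tested genes were called, and calling at such a share of changed genes was not tested.

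Members, lists, ratios and motifs were chosen with earlier results of these data known. Named were the members, Srebf1, Srebf2, Cpt1b, Mid1ip1, Hlcs, Slc25a1 and Me1, and from each list up to 3 more called genes with the smallest p. GRCr8 tables served for promoters and gene order only.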

Additional observations from a re-analysis of the deposited data

How the results depend on the processing

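The fit was repeated under 14 alternatives: RLE, upper-quartile or no scaling factors, no filter or a filter of at least 1 CPM in 3 libraries, DESeq2, limma-trend, a replicate block, and each of the 6 libraries left out. Counts of all genes and of members, higher and lower, stayed within 1.5 times their values, with 2 members higher and 6 or 7 lower throughout. Of 126 member values 124 kept direction and side of the threshold, 0 reversed, and 2 passed it, both of Acaca (given above). Of 546 values of 39 called or named pathway genes 0 reversed and 37 no longer passed, and the cause was not tested. The ratios kept their direction under other pseudocounts (0.1 and 2) and with each library left out. Library totals alone moved the median of all genes from -0.01 to -0.07. Same-numbered libraries did not deviate together (correlations -0.0338, -0.111 and -0.0896). With 3 libraries a side this does not settle whether libraries of the same number shared an isolation. With the replicate block 6193 genes were called in place of 7096, 2 members stayed higher and 6 lower, and the ratios keep their differences by construction, so that the paired form (exact permutation p = 0.25 at the lowest with 3 pairs) does not bear on their stability.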
